A study of Homo sapiens with 30 samples.

Results

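The long arm of chromosome 16, written 16q below, begins after the centromere gap of GRCh37 (hg19), and 383 of the 20098 protein-coding genes considered on the autosomes and chromosome X had every annotated start site beyond the end of that gap at position 46385801. A promoter was taken as 1000 bp on each side of every start site of a gene that GENCODE release 44 tags as basic. These 383 genes had 1069 such start sites, and 267 of them had more than 1. The arm was selected on measured values, namely the change in peak rank of RNA polymerase II (Pol II), trimethylated lysine 4 of histone H3 (H3K4me3) and acetylated lysine 9 of histone H3 (H3K9Ac) in SAP30-KO1 cells. Every value of that change is therefore a description of the arm and carries no test. The cells were MDA-MB-231, a line derived from a human triple-negative breast cancer. They were grown in DMEM with fetal bovine serum, either as parental cells or as SAP30-KO1, a SAP30 knockout made with CRISPR/Cas9, in which several single knockout clones were mixed. Each of the 3 marks had 2 libraries per line, and SAP30, SIN3A and SIN3B had 2 libraries each in parental cells alone. With 1 knockout line, loss of SAP30 and any other difference between the lines cannot be told apart. No label said that the 2 libraries of a group came from separate cultures.

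SAP30 is a subunit of the Sin3 corepressor complex, which is built on the scaffold proteins SIN3A or SIN3B and carries histone deacetylases. Pol II gathers just downstream of active start sites, H3K4me3 marks the nucleosomes flanking active or poised CpG-rich promoters, and H3K9Ac marks promoters that are open to transcription. The long arm of chromosome 16 holds the metallothionein cluster, whose proteins bind zinc and copper, and a group of cadherin genes that includes CDH1, the gene of the epithelial adhesion protein E-cadherin. It also holds CTCF, which encodes the main insulator-binding protein, and CYLD, WWOX and CBFB, all known from human tumours.

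Each library was available as a list of peak summits, single positions with a score that is the −log10 q of the peak caller, and read depth was unknown. The best-scoring summit within a promoter was ranked within its own list, from 0% for the best summit of the list to 100% for the worst. A change is the mean rank of the 2 SAP30-KO1 lists minus the mean rank of the 2 parental lists, in percentage points, so that a positive change means a worse rank in SAP30-KO1. Tied scores share a rank, and the steps were coarser in the Pol II lists of SAP30-KO1, with 1682 and 1433 distinct scores, than in the parental ones, with 2586 and 3365. The cells were a bulk culture, so a peak present in fewer cells and a lower peak in every cell cannot be told apart. The label of the cell line was checked at 16 marker genes outside the arm. All 6 genes used by mesenchymal basal lines, among them VIM and CD44, had Pol II and H3K4me3 in all 4 lists, and none of 3 blood cell genes had either mark in any list. Of 7 luminal genes 5 had no Pol II in any list, while EPCAM and KRT19 had it in all 4. H3K4me3 was in all 4 lists at 5 of the 7 luminal genes, so that mark did not set them apart. The SAP30 promoter held all 3 marks in every list of both lines, so these lists do not check the knockout.

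The stretches below lie just upstream of the first start site of 8 long-arm genes and stop before any exon of a basic transcript. They are shown because the results turn on these promoters: the first 4 ranked worse in SAP30-KO1 for all 3 marks, PSKH1 and GPT2 moved to opposite sides for Pol II, WWOX lost its Pol II peak, and MT2A was among the best Pol II promoters of the arm. Letters are on the strand of the gene, 5′ to 3′, from GRCh37. Capitals mark matches, on either strand, to 7 short motifs: the GC box GGGCGG bound by SP/KLF factors, the CCAAT box CCAAT bound by NF-Y, the NRF1 core GCGCATGC, the ETS motif CCGGAAG, the YY1 motif AAGATGGC, the CRE TGACGTCA bound by CREB and the E2F motif TTTCCCGC. Matches of different motifs may overlap.
RBL2 (chr16:53468189-53468382, plus strand): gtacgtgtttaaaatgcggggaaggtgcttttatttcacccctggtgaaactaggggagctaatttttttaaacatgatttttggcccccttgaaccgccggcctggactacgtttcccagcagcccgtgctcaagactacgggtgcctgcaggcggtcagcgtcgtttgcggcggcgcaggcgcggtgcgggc
HSBP1 (chr16:83841440-83841582, plus strand): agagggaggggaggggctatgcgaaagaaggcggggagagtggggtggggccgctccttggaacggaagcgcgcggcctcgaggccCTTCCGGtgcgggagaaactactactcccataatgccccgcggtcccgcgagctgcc
ZNF821 (chr16:71918108-71918307, minus strand): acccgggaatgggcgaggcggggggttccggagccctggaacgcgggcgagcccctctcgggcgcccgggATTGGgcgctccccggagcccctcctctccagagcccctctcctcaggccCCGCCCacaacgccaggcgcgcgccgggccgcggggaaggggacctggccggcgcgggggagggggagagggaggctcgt
CMIP (chr16:81478213-81478412, plus strand): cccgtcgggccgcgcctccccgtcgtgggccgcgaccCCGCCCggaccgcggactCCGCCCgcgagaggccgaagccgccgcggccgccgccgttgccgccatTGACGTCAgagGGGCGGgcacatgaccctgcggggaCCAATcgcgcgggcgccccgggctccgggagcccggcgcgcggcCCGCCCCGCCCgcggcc
PSKH1 (chr16:67926957-67927156, plus strand): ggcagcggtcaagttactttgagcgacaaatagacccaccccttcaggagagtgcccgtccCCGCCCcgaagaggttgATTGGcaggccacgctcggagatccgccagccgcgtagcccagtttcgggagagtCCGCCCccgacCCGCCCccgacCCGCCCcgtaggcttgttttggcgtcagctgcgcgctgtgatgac
GPT2 (chr16:46918074-46918273, plus strand): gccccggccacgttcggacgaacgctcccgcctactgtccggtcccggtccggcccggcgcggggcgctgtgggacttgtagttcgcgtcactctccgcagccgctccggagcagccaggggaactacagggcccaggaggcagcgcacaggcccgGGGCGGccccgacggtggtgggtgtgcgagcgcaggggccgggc
WWOX (chr16:78133097-78133296, plus strand): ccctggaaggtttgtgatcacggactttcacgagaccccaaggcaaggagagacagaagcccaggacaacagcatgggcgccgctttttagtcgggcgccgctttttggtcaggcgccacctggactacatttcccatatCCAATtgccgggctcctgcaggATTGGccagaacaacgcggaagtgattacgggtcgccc
MT2A (chr16:56642296-56642495, plus strand): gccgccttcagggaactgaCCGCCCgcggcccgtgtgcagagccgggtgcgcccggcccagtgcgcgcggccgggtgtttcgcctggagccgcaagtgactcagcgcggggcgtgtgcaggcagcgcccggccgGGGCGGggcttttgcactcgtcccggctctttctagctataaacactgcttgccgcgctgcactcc

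The CMIP stretch was the richest in motifs, with 5 GC boxes, 1 CCAAT box and 1 CRE in 200 bases of 84.0% G and C. The 194 bases of RBL2 held none of the 7 motifs at 57.2% G and C. PSKH1 held 4 GC boxes and 1 CCAAT box, and GPT2, which moved the other way for Pol II, held 1 GC box. The WWOX stretch held 2 CCAAT boxes and no GC box.

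Over all 383 promoters of the arm, read from 250 bases before to 50 bases after the canonical start site, the median G and C content was 67.0%, against 66.3% for the 478 promoters of the short arm, 16p, and 63.7% for all 20094 promoters with a full sequence. A GC box was found in 73.4% of 16q promoters, 67.8% of 16p promoters and 61.0% of all promoters. The CCAAT box occurred in 31.3%, 35.4% and 35.9%, and the ETS motif in 19.3%, 18.8% and 14.02%. The NRF1 core was present in 4.44%, 6.28% and 4.25%, the YY1 motif in 3.39%, 3.14% and 4.03%, the CRE in 3.39%, 2.93% and 2.69%, and the E2F motif in 3.66%, 1.26% and 2.22%. Within the arm, the 93 promoters that ranked worse for Pol II had a median of 69.0% G and C, the 116 whose lines overlapped had 67.8%, and the 129 without Pol II in any list had 62.3%. A GC box was present in 78 of those 93, in 91 of those 116, in 72 of those 129 and in 14 of the 14 that ranked better. The NRF1 core was found in 11 of the 93 promoters that ranked worse and in 4 of the 116 that overlapped. The ETS motif went the other way, with 22 of the 93 and 39 of the 116. The NRF1 difference did not recur for the histone marks. Its core was in 4 of 99 worse and 9 of 136 overlapping promoters for H3K4me3, and in 1 of 79 and 12 of 149 for H3K9Ac. The ETS motif was in 21 of those 99 and 42 of those 136 for H3K4me3. For H3K9Ac its order was reversed, with 26 of 79 worse and 36 of 149 overlapping promoters. These counts were not tested, and motifs of worse and overlapping promoters were not compared on 16p or over all genes.

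Most long-arm promoters carried all 3 marks. Pol II had a summit in all 4 lists at 223 of the 383 promoters, H3K4me3 at 255 and H3K9Ac at 246, and 213 promoters had all 3 marks in all lists. All 3 marks were also in all lists at 249 of 478 promoters on 16p and 10394 of 20098 over all genes, similar shares. On 16q no summit of any of the 3 marks was listed at 101 promoters, and 12 held H3K4me3 in all 4 lists without Pol II in any. Genes that share a promoter share its summit: the best H3K4me3 summits in parental library 1 came to 230 different positions, and 73 genes shared theirs with another gene. Of the 223 promoters with Pol II in all lists, 220 also held SAP30 in both parental lists, much like the 248 of 253 on 16p and 10489 of 10706 over all genes.

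For Pol II, the 223 promoters had median ranks of 24.4% and 22.4% in parental libraries 1 and 2, against 28.2% and 33.3% in SAP30-KO1 libraries 1 and 2, with both knockout medians worse than both parental ones. The median change was 8.29 percentage points (SD 3.57 over the 4 pairings of a SAP30-KO1 with a parental library, range 2.72 to 11.4), beside 3.31 on 16p and 1.48 over all 10706 genes with Pol II in all 4 lists. A promoter was counted as worse when both SAP30-KO1 ranks lay beyond both parental ranks, and as better in the opposite case. On 16q 93 promoters (41.7%) were worse and 14 (6.28%) better, where the background over all genes was 24.2% worse and 15.4% better and 16p had 26.1% and 13.8%. Without SAP30-KO1 library 2 the median change was 4.53. When genes were ranked only against the other genes present in all 4 lists, which sets the median of all genes to -0.056, the long arm had a median change of 7.24 with 79 promoters worse and 25 better, against 20.2% and 20.1% of all genes.

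H3K4me3 followed with a smaller change. The median ranks of its 255 promoters were 19.97% and 22.3% in parental cells and 26.6% and 23.9% in SAP30-KO1, and the median change was 4.77 percentage points (SD 1.94 over the 4 pairings, range 2.73 to 7.40), beside 2.40 on 16p and 2.09 over all genes. Here 99 promoters (38.8%) were worse and 20 (7.84%) better, against a background of 28.1% and 11.5%. On 16p 27.1% were worse and 8.93% better, the latter close to 16q. Without parental library 2 the median change was 7.18. Ranking among genes alone gave a median of 3.23, with 84 promoters worse and 31 better, against 20.01% and 18.4% of all genes.

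For H3K9Ac, the median ranks of 246 promoters were 11.8% and 11.4% in parental cells and 14.2% and 13.4% in SAP30-KO1. The median change was 1.78 percentage points (SD 0.807 over the 4 pairings, range 0.895 to 2.75), beside 0.331 on 16p and 0.309 over all genes, with 79 promoters (32.1%) worse and 18 (7.32%) better against a background of 22.1% and 16.4%. On 16p 20.2% were worse and 13.5% better. Ranking among genes alone gave a larger median of 3.68, with 73 promoters worse and 25 better, against 19.3% and 19.2% of all genes. Of 40 arms with at least 50 promoters in all 4 lists, 16q had the second largest median change for Pol II and H3K9Ac and the third largest for H3K4me3. The long arm of chromosome 11 came first each time, with 9.94, 8.50 and 5.09 percentage points, and 4q came between for H3K4me3 with 5.49. An exact permutation test of 2 libraries against 2 cannot go below p = 0.333, so none could have passed a threshold of 0.05 even without the selection.

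**Figure D1:**
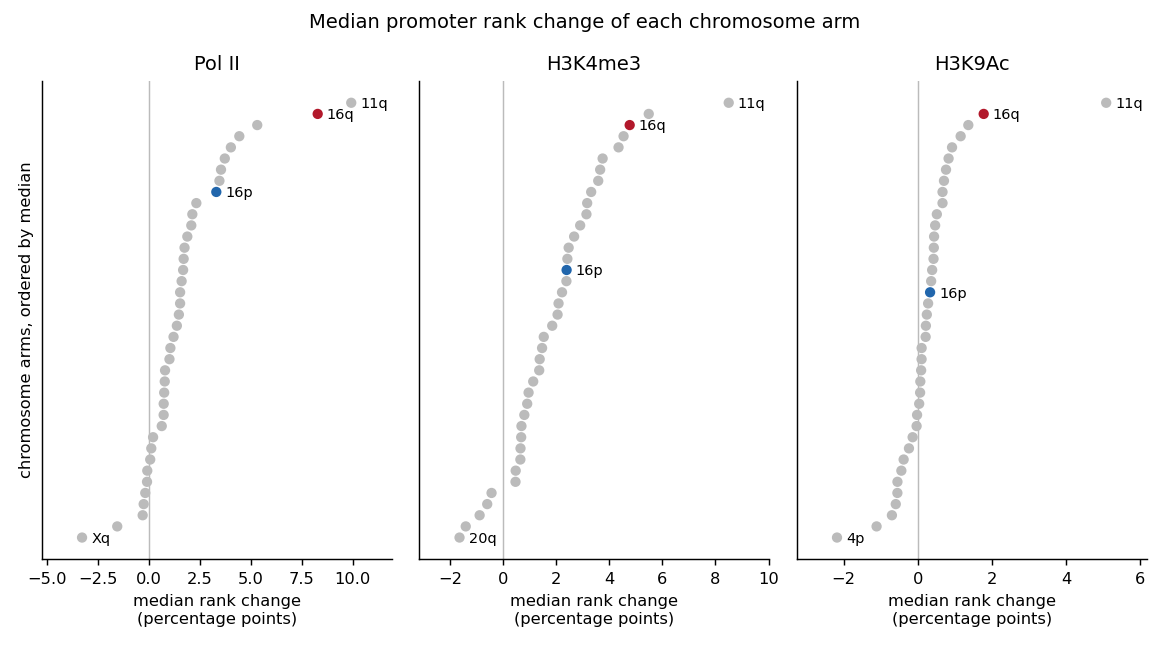
Median rank change in SAP30-KO1 (percentage points, horizontal axis) of each of 40 chromosome arms, ordered from bottom to top, for Pol II, H3K4me3 and H3K9Ac. The red point, 16q, lies at 8.29, 4.77 and 1.78, and the blue point, 16p, at 3.31, 2.40 and 0.331.

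The share of all summits of a list that lay on 16q, promoter or not, was, for Pol II, 1.997% and 2.03% in parental cells against 1.74% and 1.87% in SAP30-KO1. For H3K4me3 the shares were 1.84% and 1.87% against 1.82% and 1.78%, and for H3K9Ac 1.73% and 1.73% against 1.75% and 1.77%. On 16q the 2 lines did not overlap in the share for any mark. The knockout was below the parental line for Pol II and H3K4me3 and above it for H3K9Ac. For H3K4me3 the nearest values were only 1.84% and 1.82%. On 16p the Pol II shares did not overlap either but went up, from 2.24% and 2.15% in parental cells to 2.305% and 2.31% in SAP30-KO1. The H3K4me3 and H3K9Ac shares of 16p overlapped. None of these shares was tested, since an exact permutation test of 2 libraries against 2 cannot go below p = 0.333.

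Placed in stretches of 5 Mb by the first start site, the change was spread along the arm. Stretches with at least 10 promoters in all 4 lists were used, 7 for Pol II and 8 for each histone mark. Pol II medians ran from 5.05 to 10.9 percentage points, the lowest between 55 and 60 Mb, where 33 promoters of the metallothionein region and its neighbours were counted, and the highest between 80 and 85 Mb over 25 promoters. The stretch from 65 to 70 Mb, with 62 promoters the fullest, had a median of 9.84 with 26 promoters worse and 3 better. In the last full stretch, 85 to 90 Mb, 18 of 39 promoters were worse and none better, with a median of 7.59. Over all genes 24.2% were worse and 15.4% better for Pol II.

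H3K4me3 medians ran from 2.36 between the gap and 50 Mb to 11.3 between 50 and 55 Mb, where 9 of 13 promoters were worse and 1 better. Over all genes 28.1% were worse and 11.5% better for H3K4me3. H3K9Ac medians ran from 0.264 between 80 and 85 Mb to 4.10 between 70 and 75 Mb, where 14 of 30 promoters were worse and none better. The H3K9Ac shares of all genes were 22.1% and 16.4%. Of the 23 medians in all, 23 were above 0 and 22 above that of all genes. On 16p the medians ran from -2.32 to 4.602 for Pol II over 6 stretches, from -2.33 to 4.98 for H3K4me3 over 7 and from -0.781 to 1.15 for H3K9Ac over 6. The share of worse promoters per 16p stretch ran from 16.7% to 33.3%, 18.2% to 36% and 12.5% to 31.4% for these marks. Per 16q stretch it ran from 33.3% to 57.1%, 23.5% to 69.2% and 17.1% to 50%. With the edges moved by 2.5 Mb, the 16q medians ran from 3.66 to 16.5 for Pol II, from 3.32 to 8.07 for H3K4me3 and from -2.48 to 3.39 for H3K9Ac, and 23 of 25 were above 0.

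**Figure D2:**
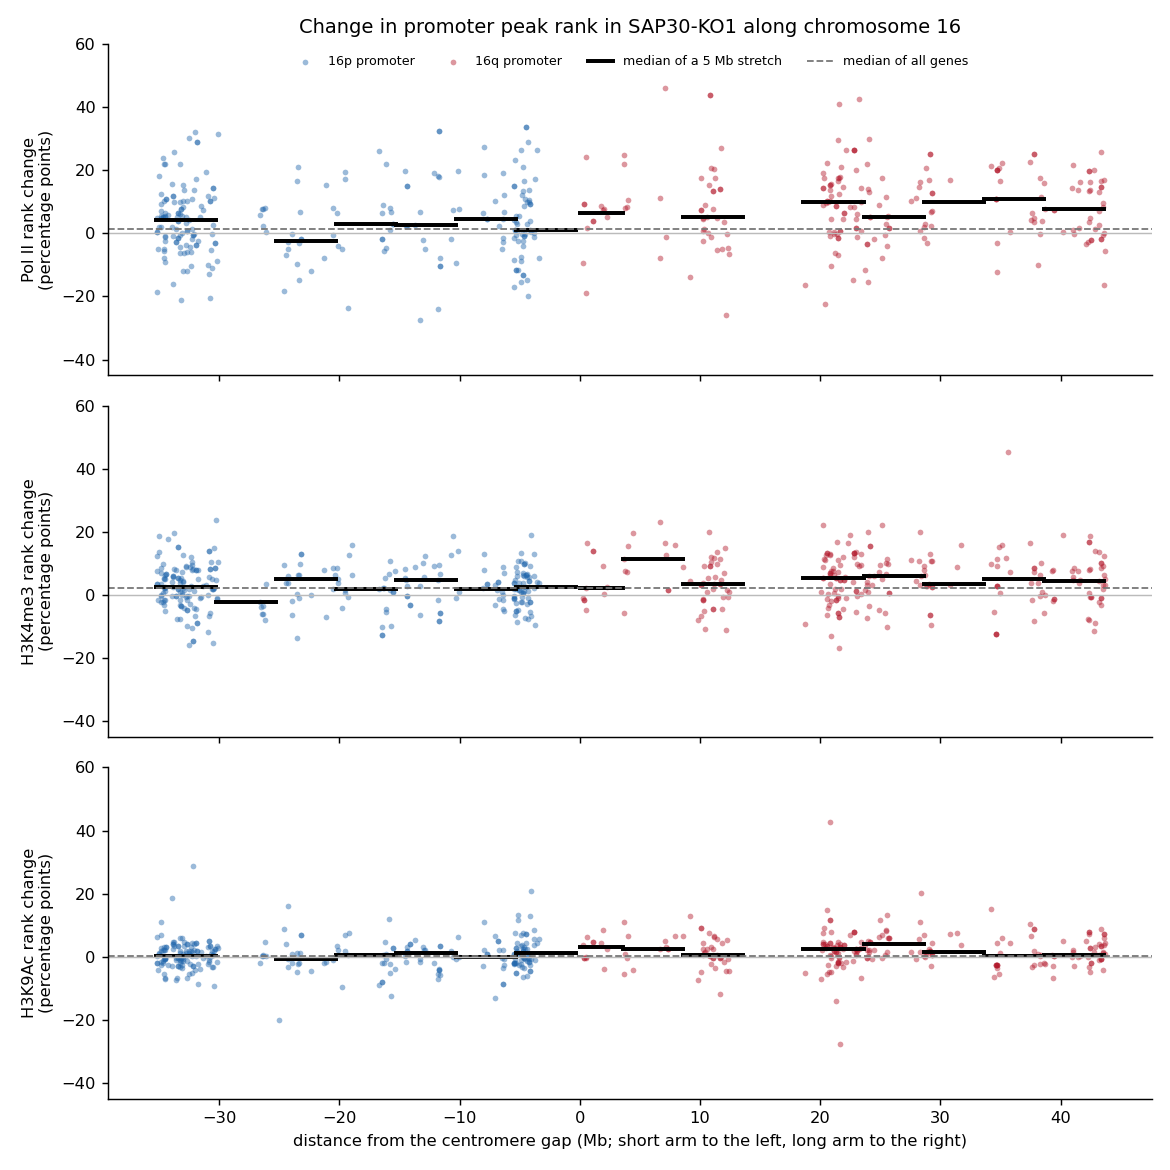
Rank change in SAP30-KO1 (vertical axis, percentage points, positive is worse) of each promoter with a summit in all 4 lists, against its distance from the centromere gap in Mb, for Pol II, H3K4me3 and H3K9Ac. Black bars are medians of 5 Mb stretches and the dashed line is the median of all genes (1.48, 2.09 and 0.309). The bars of the long arm lie above the dashed line except the H3K9Ac bar at 0.264.

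At the edge of the arm, the 2 members nearest the gap were SHCBP1, a signalling adaptor that acts at the midbody, and VPS35, a core subunit of the retromer that returns receptors from endosomes. SHCBP1 ranked at 34.3% and 34.3% for Pol II in parental cells and at 20.2% and 29.6% in SAP30-KO1, the better ranks being those of the knockout. VPS35 ranked at 13.9% and 13.9% against 20.7% and 25.4%, worse in both knockout lists. The 2 genes nearest the gap on the other side, IGHV3OR16-17 and ENSG00000284209, had no summit of the 3 marks in any list.

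Promoters with the strongest Pol II in parental cells were most often worse. Of the 46 long-arm promoters with a mean parental Pol II rank of 0 to 10%, 30 (65.2%) were worse and 2 better, against 33.0% worse over the 2144 genes of that class and 9 of 29 on 16p. From 10 to 20%, 25 of 43 were worse against 26.7% of all genes, and from 40 to 60%, 11 of 47 against 20.03%. For H3K4me3 25 of 47 (53.2%) were worse at 0 to 10%, against 33.6% of all genes but a like share of 19 of 36 (52.8%) on 16p, and 23 of 38 at 40 to 60%, against 41.9% and 12 of 40 on 16p, while 13 of 71 were worse at 20 to 40%, against 21.6%. For H3K9Ac 44 of 99 promoters were worse at 0 to 10%, against 26.4% of all genes and 26 of 102 on 16p. Since the parental lists both set the class and enter the change, each class is to be read against the same class of all genes.

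The 3 marks coincided at some of the promoters. Of the 213 promoters with every mark in every list, 20 (9.39%) were worse for all 3, beside 4 of 249 (1.61%) on 16p and 304 of 10394 (2.92%) over all genes, and 2 (0.939%) were better for all 3, beside 1.10% of all genes. The 20 genes used 17 different Pol II summits, because DNAAF1 and HSDL1, FBXL8 and TRADD, and CTU2 and RNF166 share a divergent promoter. At 18 of the 213 promoters at least 1 mark was worse and another better, beside 28 of 249 on 16p and 1179 of 10394 over all genes.

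RBL2, a pocket protein of the retinoblastoma family that represses E2F targets in resting cells, had the largest Pol II change of the arm. Its Pol II ranks were 18.9% and 33.0% in parental cells and 49.7% and 94.4% in SAP30-KO1, its H3K4me3 ranks 9.57% and 7.87% against 31.1% and 19.5%, and its H3K9Ac ranks 9.20% and 8.50% against 15.8% and 12.2%. The lines did not overlap for any mark, but the knockout libraries differed from each other for Pol II by more than the lines did at their nearest values, and a Pol II summit of knockout library 1 lay 935 bp downstream of the start site where the others lay 24 to 137 bp downstream. NFAT5, the transcription factor of the response to hypertonic stress, ranked at 7.88% and 14.8% for Pol II in parental cells and at 24.5% and 83.3% in SAP30-KO1, with H3K4me3 at 1.85% and 9.02% against 11.7% and 17.6%. The knockout libraries were again far apart for Pol II.

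DNAAF1, needed to assemble the dynein arms of cilia, and HSDL1, a relative of the hydroxysteroid dehydrogenases, start close together on opposite strands. Their shared promoter ranked at 15.2% and 6.64% for Pol II in parental cells and at 36.4% and 35.6% in SAP30-KO1. Its H3K9Ac ranks were 13.5% and 9.31% against 19.5% and 21.1%, and here both knockout libraries were close together. FBXL8, an F-box protein, and TRADD, the adaptor that links TNF receptors to cell death and NF-kappaB signalling, share a promoter with Pol II ranks of 31.0% and 29.4% against 44.8% and 45.9% and H3K9Ac ranks of 11.9% and 9.80% against 22.9% and 21.98%. Both lines were tight at that promoter for both marks.

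HSBP1, a small protein that binds heat shock factor, had H3K9Ac ranks of 10.5% and 12.3% in parental cells and 20.6% and 22.9% in SAP30-KO1 and H3K4me3 ranks of 19.4% and 18.7% against 32.6% and 38.4%. For Pol II its ranks were 27.6% and 30.8% against 72.3% and 31.1%, so that knockout library 2 lay just beyond the parental pair. MLKL, the executor of necroptosis, ranked at 39.0% and 46.1% for Pol II against 53.2% and 64.2%, and at 12.8% and 19.9% for H3K9Ac against 24.4% and 30.6%. The zinc-finger gene ZNF821 was nearly level for Pol II, at 51.7% and 52.5% against 58.2% and 56.2%, and further apart for H3K9Ac, at 9.67% and 13.2% against 26.2% and 23.4%.

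CMIP, an adaptor of T-cell signalling, had Pol II at 43.5% and 41.3% against 61.4% and 67.8%. CNEP1R1, the regulatory subunit of a nuclear envelope phosphatase acting on lipins, had Pol II at 22.2% and 29.3% against 61.4% and 39.9%, and WWP2, a ubiquitin ligase of the HECT family, at 18.9% and 21.6% against 27.1% and 42.1%. In these genes both SAP30-KO1 libraries lay beyond the parental pair in all 3 marks, although their H3K4me3 ranks came within a fraction of a percentage point at CNEP1R1, where the nearest values were 7.79% and 7.88%.

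**Figure D3:**
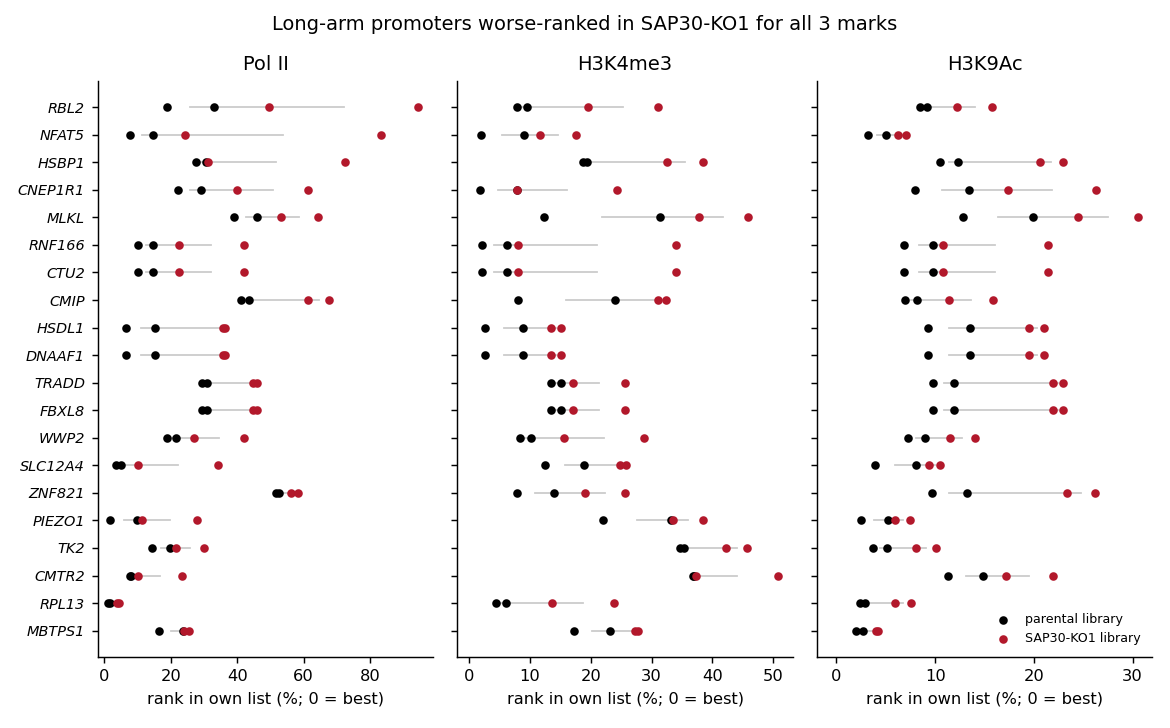
Rank within its own list (horizontal axis, %, 0 is best) of each parental library (black) and each SAP30-KO1 library (red) at the 20 long-arm promoters that were worse for Pol II, H3K4me3 and H3K9Ac, with a grey line between the means of the lines. The red points lie to the right of the black ones throughout, and for Pol II widely at RBL2 and narrowly at RPL13 and MBTPS1.

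The genes that were better for all 3 marks were CDH11 and SETD6. CDH11, a cadherin of mesenchymal cells, ranked at 44% and 47.5% for Pol II in parental cells and at 21.8% and 37.1% in SAP30-KO1, at 47.5% and 43.1% against 42.7% and 29.6% for H3K4me3, and at 12.1% and 11.7% against 4.76% and 8.90% for H3K9Ac. SETD6, a methyltransferase of non-histone proteins such as RELA, ranked at 65.3% and 65.5% against 36.9% and 42.1% for Pol II, the widest gap of the arm in that direction. Its H3K4me3 ranks of 43.3% and 43.1% in parental cells became 28.2% and 36.3%.

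The widest separations for Pol II in the direction of the arm were at promoters whose H3K9Ac ranks overlapped between the lines. PSME3IP1, which binds an activator of the proteasome, and RSPRY1, a RING-domain protein, share a promoter with Pol II at 22.2% and 26.6% in parental cells and at 72.3% and 64.2% in SAP30-KO1, with H3K9Ac at 2.65% and 10.8% against 4.42% and 9.30%. PSKH1, a serine kinase, ranked at 6.22% and 9.73% for Pol II against 53.2% and 44.5%. Its H3K4me3 ranks went the other way, at 30.7% and 29.4% against 15.3% and 11.3%. TMEM170A, a membrane protein of the nuclear envelope and endoplasmic reticulum, shares a promoter region with the neighbouring gene ENSG00000261717, with Pol II at 4.29% and 6.12% against 28.4% and 32.4%. FCSK, the kinase that salvages fucose, ranked at 61.9% and 46.8% against 85.2% and 83.3%.

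Opposite directions also occurred the other way round. DYNC1LI2, a light intermediate chain of cytoplasmic dynein, had better Pol II ranks in SAP30-KO1, at 47.9% and 37.8% in parental cells against 15.1% and 25.9%, but worse H3K4me3 ranks, at 4.88% and 3.50% against 15.2% and 15.4%. GPT2, the mitochondrial alanine transaminase, had Pol II at 30.6% and 36.8% against 11.9% and 17.8%, with overlapping histone marks. DEF8 and MEAK7, both linked to lysosomes, were better for Pol II by 16.5 and 10.1 percentage points (changes of -16.5 and -10.1).

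Pol II peaks were lost, that is present in both parental lists and in neither SAP30-KO1 list, at 11 of 243 promoters (4.53%), where the background was 2.33% of genes, and 3 of 276 were lost on 16p. None was gained, against a background of 0.249%. WWOX, an oxidoreductase gene that spans a common fragile site, held Pol II at 41.8% and 41.9% in parental cells. NUDT7, a peroxisomal hydrolase of coenzyme A, held it at 70.0% and 51.7%. In both SAP30-KO1 lists no Pol II summit lay in the 3.35 Mb between the last summit before NUDT7 and the first one beyond WWOX. The parental lists held 3 summits in 3.35 Mb and 2 in 2.84 Mb between the corresponding flanking summits. The interval was drawn around promoters already known to have lost Pol II. Its emptiness in SAP30-KO1 was thus largely set in advance and adds little to the losses at NUDT7 and WWOX. H3K4me3 stayed listed at both promoters in all 4 lists, at worse ranks in SAP30-KO1, 13.3% and 9.97% against 26.2% and 28.7% for WWOX.

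The other lost Pol II peaks included DOK4, a docking protein of receptor kinases, at 46.6% and 57.1% in parental cells, and the homeobox gene IRX3 at 62.4% and 48.9%. IRX5, its neighbour, was lost as well, but SAP30-KO1 summits lay 1206 and 2083 bp from its start sites, just outside the promoter. B3GNT9, HSD11B2, SMPD3, PLCG2, SDR42E1 and ENSG00000198211 complete the list. Among them only ENSG00000198211 had a SAP30-KO1 summit within 2 kb of the start, at 1233 and 1126 bp, and 1 of the 11 losses was at a promoter in the better-ranked 50% of both parental lists.

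For H3K4me3, 7 of 265 promoters (2.64%) lost their peak against a background of 1.43%, and none gained one, against 0.166%. CDH1 was one of them, with weak parental summits at 89.9% and 67.0% of their lists and no Pol II or H3K9Ac in any list of either line. KCTD19 and LRRC36, which share a promoter, were lost for H3K4me3 at 64.4% and 66.1% and for H3K9Ac at 60.3% and 75.7%. NKD1, an inhibitor of Wnt signalling, CA7, CARMIL2 and CDH15 were the others, and none of the 7 lay in the better-ranked 50% of both parental lists. H3K9Ac was lost at 4 of 254 promoters (1.57%, background 0.689%), KCTD19, LRRC36, SDR42E1 and CHD9NB, and gained at 2 of 254 (0.787%, background 0.538%). The gains were CX3CL1, the chemokine fractalkine, at 61.3% and 92.0% in SAP30-KO1, and CES4A, a carboxylesterase, at 48.1% and 54.7%.

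Among promoters with H3K4me3 throughout, SDR42E1, a short-chain dehydrogenase, was furthest apart, at 45.7% and 47.8% in parental cells and 88.1% and 95.9% in SAP30-KO1, and it also lost Pol II and H3K9Ac. CHD9, a chromatin remodeller, ranked at 8.22% and 2.70% against 28.1% and 29.0%. CYLD, the deubiquitinase that restrains NF-kappaB signalling, ranked at 4.19% and 4.65% against 24.7% and 23.4%. At CYLD the H3K9Ac ranks were better in SAP30-KO1, at 18.1% and 18.4% against 15% and 13.2%, and at CHD9 the Pol II ranks were, at 48.8% and 37.4% against 35.1% and 35.3%.

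TANGO6, a protein of membrane traffic, had H3K4me3 at 19.0% and 20.3% against 40.5% and 37.0%, and CMTM3, a MARVEL-domain protein, at 13.3% and 13.3% against 41.8% and 29.3%. Better H3K4me3 ranks were seen at the promoter shared by CENPN, a kinetochore protein that reads the centromeric nucleosome, and CMC2, an assembly factor of cytochrome oxidase, at 17.0% and 19.7% against 10.3% and 2.04%. Pol II was worse there, at 11.8% and 13.96% against 19.4% and 28.1%. TAF1C, a subunit of the RNA polymerase I selectivity factor, ranked at 18.3% and 15.01% against 7.81% and 9.11% for H3K4me3.

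The widest H3K9Ac separation was at B3GNT9, a glycosyltransferase, with 27.1% and 34.9% in parental cells against 67.3% and 80.4% in SAP30-KO1, and Pol II was lost there. LONP2, the peroxisomal protease, had H3K9Ac at 9.08% and 11.1% against 19.2% and 18.3%. In the other direction, DPEP2, a membrane dipeptidase, had H3K9Ac at 60.3% and 88.5% against 41.8% and 51.7%, without Pol II or H3K4me3 in any list, and the matrix metalloproteinase gene MMP15 had 51.3% and 60.5% against 45.2% and 42.7%. NOB1, an endonuclease of ribosome maturation, had better H3K9Ac ranks, at 15.8% and 18.0% against 11.8% and 8.66%, beside worse Pol II ranks, at 17.6% and 12.2% against 24.7% and 24.98%.

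The 4 best parental Pol II ranks of the arm were those of TUBB3, SLC7A5, HERPUD1 and MT2A. TUBB3, the beta-tubulin of neurons and of many aggressive carcinomas, led the arm for Pol II at 0.492% and 0.467% in parental cells and 0.613% and 0.836% in SAP30-KO1. SLC7A5, the large neutral amino acid transporter, followed at 0.516% and 0.748% against 1.19% and 3.42%, and HERPUD1, a component of endoplasmic reticulum protein degradation, at 1.02% and 1.47% against 4.65% and 7.94%. In these 3 genes the knockout libraries were worse without overlap. MT2A, the most widely expressed metallothionein, overlapped, at 1.58% and 1.12% against 10.4% and 1.53%. CTCF had one of the best H3K9Ac ranks, at 0.753% and 1.16% against 3.17% and 4.02%, while its Pol II ranks were better in SAP30-KO1, at 22.8% and 13.1% against 11.3% and 12.3%.

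Grouped by function, the 20 listed genes of ubiquitin, proteasome, autophagy and ESCRT pathways leaned most to one side for Pol II. Of 19 with Pol II in all lists, 12 were worse and none better, where the arm had 41.7% worse and 6.28% better and all genes 24.2% and 15.4%. The median change of the list was 11.3 percentage points beside 8.29 for the arm and 1.48 for all genes. For H3K9Ac the same list had 4 of 20 worse and 3 better, near the 22.1% and 16.4% of all genes. FBXO31, an F-box protein that targets cyclin D1, ranked at 14.5% and 15.9% in parental cells and 36.9% and 37.1% in SAP30-KO1, and VPS4A, the ATPase that disassembles ESCRT filaments, at 27.2% and 20.8% against 45.9% and 42.1%. MAP1LC3B, the autophagosome protein LC3B, was worse by far less, at 2.70% and 2.63% against 2.93% and 4.27%. IST1, an ESCRT subunit, overlapped with a change of -4.11.

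Among 13 listed genes of DNA replication, repair, telomere and centromere, 7 of 12 were worse for Pol II and 1 better, with a median change of 9.39, beside 41.7% worse in the arm and 24.2% over all genes. CHTF8, a subunit of an alternative clamp loader, shares a promoter with UTP4, a ribosome assembly factor, and ranked at 2.55% and 2.36% against 23.4% and 34.2%. FANCA, the Fanconi anaemia core subunit, ranked at 2.37% and 2.14% against 19.4% and 4.31%, and ATMIN, a cofactor of the ATM kinase, was better at 10.8% and 10.6% against 10.5% and 4.87%. Of 8 listed genes of ribosome and translation, 5 were worse and 1 better, and that 1 was AARS1, the alanyl-tRNA synthetase, which shares its promoter with the RNA helicase gene DDX19B, at 5.50% and 6.43% against 3.59% and 1.43%.

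Among the 22 sequence-specific factors, no Pol II was listed at 11, such as the forkhead genes FOXF1 and FOXC2, 2 lost it, and of 9 with Pol II throughout 5 were worse and 1, CTCF, better, with a median change of 21.1. The arm had 41.7% worse and 6.28% better, and all genes 24.2% and 15.4%. CBFB, the partner of the RUNX factors, ranked at 3.97% and 2.85% against 6.95% and 20%. Of 10 chromatin and corepressor genes 7 had Pol II in all lists, and of these 2 were worse and 2, SETD6 and CHD9, better. ANKRD11, a coregulator that binds histone deacetylases, ranked at 6.38% and 12.4% against 18.0% and 27.0%, and BANP, a protein that binds unmethylated CG-containing motifs, overlapped at 21.8% and 9.90% against 49.1% and 15.1%.

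The next 3 lists had shares of worse Pol II promoters near the 24.2% of all genes and below the 41.7% of the arm. RNA synthesis and processing had 4 of 16 worse and 1 better with a median change of 4.52, and one of the 4 was EXOSC6, a subunit of the RNA exosome, at 22.02% and 10.8% against 35.1% and 42.1%. In mitochondria and metabolism 5 of 18 were worse and none better, led by PDP2, the pyruvate dehydrogenase phosphatase, at 44.8% and 35.7% against 56.3% and 69.0%. Cytoskeleton, matrix and adhesion had 3 of 11 worse and 1 better with a median change of 0.245. Immune and cell death had 3 of 7 worse and none better, a share near that of the arm, with a median of 15.2, and 8 of its 16 genes had no Pol II in any list.

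The gene clusters that the arm is best known for were mostly silent or level. Of 8 cadherin genes 7 had no Pol II in any list and CDH11 was the exception. For H3K4me3 CDH3, the gene of P-cadherin, was worse, at 64.1% and 66.3% against 77.2% and 86.3%, CDH1 and CDH15 were lost, and CDH5, CDH8, CDH13 and CDH16 had none. Of 11 metallothionein genes 4 had Pol II in all lists and none was called in either direction, with changes from -2.48 to 4.61. MT1X ranked at 2.43% and 3.598% in parental cells and 3.59% and 5.35% in SAP30-KO1, and MT1E at 9.02% and 3.90% against 4.65% and 9.77%.

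**Figure D4:**
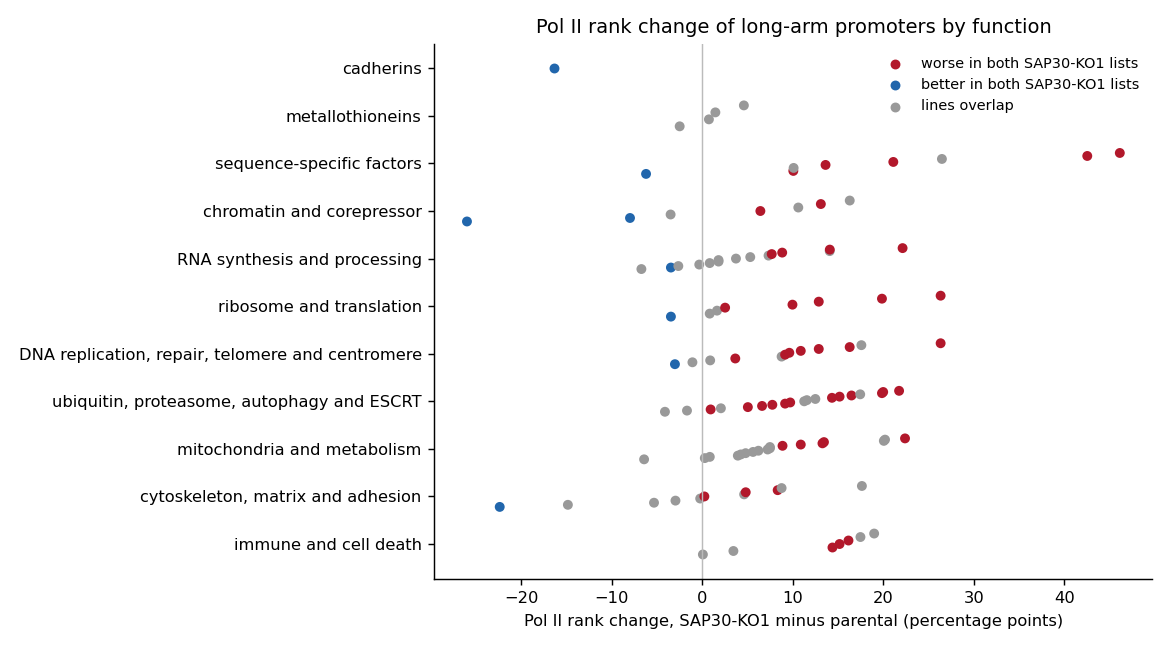
Pol II rank change (horizontal axis, percentage points, SAP30-KO1 minus parental) of long-arm promoters with Pol II in all 4 lists, in rows by function. Each point is a gene, red where both SAP30-KO1 lists were worse, blue where both were better and grey where the lines overlapped. THAP11, with a change of 29.7, is not drawn. It is counted in the text both among sequence-specific factors and in RNA synthesis and processing. The ubiquitin row has 12 red points and no blue one, and the metallothionein row has grey points alone.

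Occupancy by the Sin3 complex was measured in parental cells alone and took no part in the choice of the arm. SAP30 was present in both lists at 255 of the 383 long-arm promoters (66.6%, 70.0% in library 1 and 67.4% in library 2), beside 59.6% on 16p and 61.2% of all genes. Where it was present it ranked high: the median of the mean rank was 8.49% on 16q, 19.4% on 16p and 17.1% over all genes, and of 41 arms with at least 50 promoters 16q had the best median, followed by 20q at 9.86%. SAP30 library 1 gave 9.14% for 16q and 18.5% for 16p, and library 2 gave 9.02% and 21.1%. Both lists placed 124 long-arm promoters (32.4%) within the best 10%, against 11.1% on 16p and 14.7% of all genes. The difference between the arms was not tested, since promoters are not replicates and there were 2 libraries.

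The best SAP30 summit of the arm was at SHCBP1, at 0.0143% and 0.00286% of the lists, followed by VPS35 and ORC6, an origin recognition subunit, which share a promoter at 0.0257% and 0.0457%. These 3 genes lie next to the centromere gap. RNF166 and CTU2, with SAP30 at 0.169% and 0.317%, were worse for all 3 marks in SAP30-KO1, and GPT2, with SAP30 at 0.871% and 0.781%, was better for Pol II. Over the 220 long-arm promoters with both measurements, Spearman's rho between SAP30 rank and Pol II change was -0.048, and it was 0.128 for H3K4me3 over 245 promoters and 0.107 for H3K9Ac over 240, given as descriptions across promoters that share libraries. Over all genes the same values were -0.0045, 0.136 and 0.054, and on 16p -0.064, 0.030 and 0.032. Since 0% is the best SAP30 rank, a positive rho means that promoters with weaker SAP30 tended to larger positive changes.

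SIN3A was present in both lists at 37.9% of long-arm promoters, against 27.6% on 16p and 31.5% of all genes, with a median of the mean rank of 34.8%, 43.9% and 35.9%. SIN3B was present at 58.0%, 49.6% and 51.7%, with medians of 21.3%, 23.7% and 21.6%. The medians of both scaffolds on 16q were thus close to those of all genes, and that of SAP30 was not. Divided by occupancy, 144 long-arm promoters held SAP30, SIN3A and SIN3B, 74 SAP30 and SIN3B, 36 SAP30 alone, 124 none of the 3 and 5 another combination. Pol II was worse at 66 of 139 promoters with all 3 (47.5%, against 23.9% of such promoters over all genes), at 21 of 68 with SAP30 and SIN3B (30.9% against 24.5%) and at 5 of 12 with SAP30 alone (41.7% against 24.2%). For H3K4me3 20 of 29 were worse with SAP30 alone (69.0% against 48.8%), 26 of 71 with SAP30 and SIN3B (36.6% against 25.8%) and 47 of 144 with all 3 (32.6% against 22.1%). For H3K9Ac 4 of 25 were worse with SAP30 alone, 16% and thus below the 24.5% of all genes. With SAP30 and SIN3B 26 of 72 were worse (36.1% against 23.8%), and with all 3 45 of 142 (31.7% against 20.3%).

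**Figure D5:**
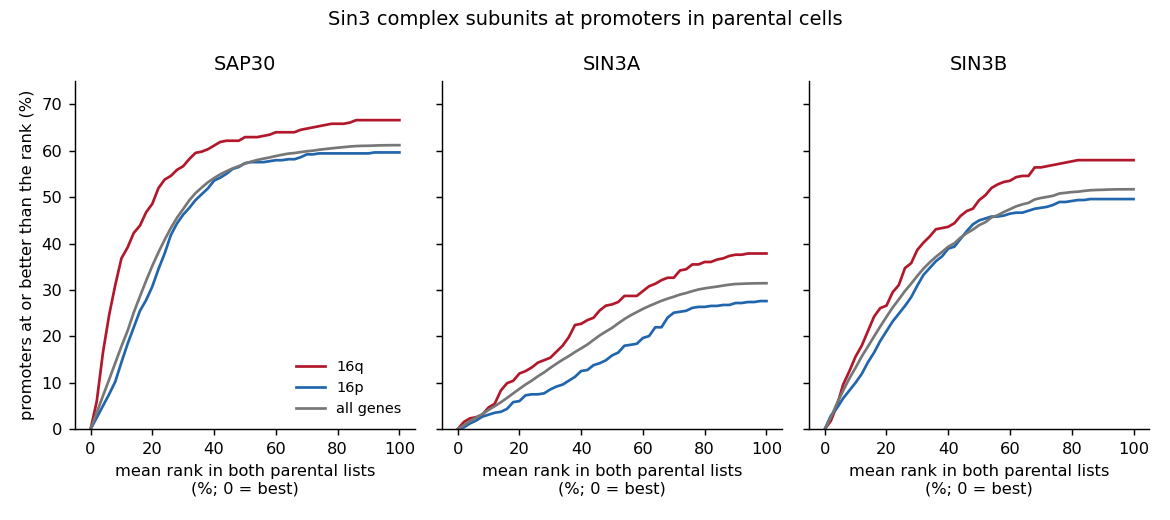
Share of promoters (vertical axis, %) whose mean rank in both parental lists was at or better than the value on the horizontal axis (%, 0 is best), for SAP30, SIN3A and SIN3B on 16q (red), on 16p (blue) and over all genes (grey). The red SAP30 curve climbs ahead of the others from the start and ends at 66.6%, against 59.6% and 61.2%.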

How the data were processed

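ChIP-seq summit lists of 18 samples were used. The other 12 samples, input chromatin and H3, were not used here. According to the submitters' processing notes, reads were handled with FastQC 0.11.2, Bowtie2 2.3.3.1, Picard and MACS2 2.1.0 on hg19. The deposited score of each summit is the −log10 q that the authors' peak caller gave, and read depth was unknown, so no interval for counting error was given.

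Summits were ranked within their own list (Python 3.11.15, pandas 2.3.3, SciPy 1.17.1) and assigned to promoters by GENCODE 44 start sites on GRCh37. The counting was tested on simulated lists. Members, gene lists and comparisons were chosen with earlier results of these data known. For each mark the genes named were the 6 with the widest gap between lines in each direction, the 4 best-ranked lost and gained, the 4 best in parental cells, up to 12 called in all 3 marks, the 2 next to the gap and up to 4 of each functional list. IRX5, ORC6, CDH3, FOXF1, FOXC2 and the other genes outside this rule were named after their values were seen. Alternatives changed the window (500 or 3000 bp), the start sites, the ranking, the summits kept and the libraries used. Some sequences are not reported here.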

Additional observations from a re-analysis of the deposited data

How the results depend on the processing

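On 16q the median change stayed above 0 for all 3 marks under every alternative run. The median of all genes was also above 0 in most alternatives for which it was computed, and that of 16q lay above it in each. With the edges of the 5 Mb stretches shifted, 23 of 25 stretch medians were above 0, and the others, both for H3K9Ac, were -0.27 and -2.48. Without H3K9Ac parental library 2, 5 promoters gained and 4 lost H3K9Ac, against 2 and 4 with all libraries. Of 202 recomputed values 140 moved by less than an SD, or by at most 1.5 times for counts, and 62 by more, and the cause was not tested except where stated. For medians and differences the SD was over the pairings of a SAP30-KO1 with a parental library, and for shares between single libraries. The 140 include the replicate-block medians, which equal the main ones by construction. They also include the count of shifted stretches, to which no threshold was applied. Ranking among genes present in all 4 lists gave, for Pol II, 25 promoters better and a difference from 16p of 7.05, for H3K4me3 31 better, and for H3K9Ac a median of 3.68 and a difference of 3.69. A window of 500 bp gave 1 Pol II and 2 H3K4me3 gains, and the 5′ start site alone gave 1 Pol II and 1 H3K9Ac gain. Counting only lost or gained peaks in the better-ranked 50% of the lists that held them left 1 Pol II loss, 0 H3K4me3 losses, and 0 H3K9Ac losses and gains. Shares of promoters with SAP30 were 62.1% (500 bp), 70.2% (3000 bp), 70.8% (either list) and 61.6% (better-ranked 50% of each list), with SIN3A 35.0%, 39.2%, 49.9% and 19.6%, and with SIN3B 54.6%, 60.1%, 61.9% and 44.4%.

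Leaving out 1 library in turn requires fewer ranks to separate, so calls increase over all genes too. For Pol II the median ranged from 4.53 to 9.27, worse from 111 to 146, better from 22 to 53, lost from 13 to 17, gained from 0 to 3 and the difference from 16p from 4.22 to 5.07. For H3K4me3 these were 3.58 to 7.18, 118 to 165, 27 to 59, 8 to 10, 0 to 2 and 1.63 to 3.95. For H3K9Ac they were 1.25 to 2.61, 113 to 135, 38 to 59, 4 to 7, 3 to 5 and 0.838 to 2.12. The median of all genes with 1 library left out ranged from 0.0997 to 2.87 for Pol II. It ranged from 0.421 to 3.60 for H3K4me3 and from -0.0584 to 0.666 for H3K9Ac. The counts of worse promoters over 1.5 times those from all libraries were 146 for Pol II without parental library 1 (40.2% of all genes), 165 and 151 for H3K4me3 without parental or SAP30-KO1 library 2 (48.5% and 51.7%), and 135 and 134 for H3K9Ac without the same libraries (39.98% and 40.2%). One library alone gave shares of 67.4% to 70.0% for SAP30, 43.6% to 44.1% for SIN3A and 59.5% to 60.3% for SIN3B. The labels did not say whether libraries with the same replicate number were paired. Replicate differences of the parental and SAP30-KO1 lines were nearly uncorrelated over genes (correlations 0.00745, -0.0190 and -0.0136), and the libraries were treated as unpaired. With the replicate block 113 Pol II promoters were worse and 24 better, 117 and 28 for H3K4me3, and 100 and 26 for H3K9Ac. Over all genes the block gave 31.9% and 22.3%, 36.4% and 17.1%, and 30.1% and 23.5%.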
